A study of Mus musculus with 24 samples.

Results

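Brown adipose tissue of mouse neonates was profiled by RNA sequencing in 3 libraries labelled NFIA-KO and 3 libraries labelled wild-type. These 6 libraries were chosen by their titles from the 24 of the study, whose other 18 libraries are from C2C12 cells, a mouse myoblast line, with or without added NFIA. The tissue libraries carry no treatment in the labels. The labels give neither strain, sex, exact age, litter nor the part of the gene that was deleted, and do not say whether a library holds 1 animal or several. The p-values below therefore measure the spread between these libraries only. Values are FPKM, fragments scaled to the length of the transcript and the mapped fragments of the library, as the authors deposited them. The 2 groups are called the KO-labelled and the wild-type libraries here.

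NFIA belongs with NFIB, NFIC and NFIX to the nuclear factor I family of transcription factors, which bind DNA as dimers. In brown adipocytes, the nuclear receptor PPARG and the C/EBP factors switch on genes for storing and burning fat, and the study's title places NFIA beside PPARG at enhancers of such cells. Brown fat warms newborn mice: noradrenaline raises cAMP through beta-adrenergic receptors, stored lipid is broken down, and the fatty acids are burned in mitochondria that UCP1 uncouples from ATP synthesis.

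The targeted gene was not lower in the KO-labelled libraries. Nfia stood at 44.6, 40.1 and 39.4 FPKM in KO-labelled libraries 1, 2 and 3, against 24.3, 32.8 and 32.6 FPKM in wild-type libraries 1, 2 and 3. All 3 KO-labelled values lay above all 3 wild-type values. The log2 fold change of FPKM + 1 was 0.47 ± 0.15 (SE), with an adjusted p of 0.097 in the limma fit over all genes. The deposited Nfia entry covers mm9 chr4:97234824-97868605 as a whole, so a transcript that lacks only part of the gene would still be measured, and the labels do not say which part was removed. Every direction below is that of the libraries labelled NFIA-KO, and the labels could not be checked against this gene. None of the other members of the family was called. Nfib had a log2 fold change of 0.03 ± 0.15 (adjusted p = 0.92), Nfic of -0.33 ± 0.25 (adjusted p = 0.42) and Nfix of 0.15 ± 0.22 (adjusted p = 0.69).

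The groups were not matched for sex. Xist, the RNA that silences an X chromosome in female cells, was at 80.0, 83.6 and 92.2 FPKM in KO-labelled libraries 1, 2 and 3, against 0.07, 105.9 and 0.09 FPKM in wild-type libraries 1, 2 and 3. The Y-linked gene Ddx3y was at 0.12, 0.10 and 0.07 FPKM in the KO-labelled libraries, against 32.1, 0.10 and 34.4 FPKM in the wild-type ones. Wild-type library 2 was thus the only wild-type library with Xist, as in all KO-labelled libraries, and sex and genotype cannot be told apart in the other pair of wild-type libraries. For the main genes the difference between the 3 KO-labelled libraries and wild-type library 2 is therefore given as well, from a fit with the Xist status of the library as a term. Its SE assumes that this lone library varies like the others.

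Several markers of brown adipocytes, and the general adipocyte gene Adipoq, were high in both groups. The lowest level in any library was 1445 FPKM for Ucp1, 1973 FPKM for Cidea and 652 FPKM for Adipoq. For Cox8b and Cox7a1 it was 846 and 1427 FPKM. Other markers of brown adipocytes were at lower levels. Elovl3 spanned 1.68 to 39.9 FPKM over the 6 libraries, Dio2 4.60 to 37.1, Ppargc1a 10.8 to 44.7 and Otop1 11.6 to 114. Adrb3 was too low to be tested. The number of reads behind each library is unknown, and with it the counting error of a value; the FPKM of a library summed to between 762822 and 845621, with 20832 to 21410 genes above 0. Some abundant genes were listed at 0. Of the 13 mRNAs encoded by the mitochondrial genome, 11 were at 0 in all 6 libraries, and mt-Nd2 was at 15422, 8857 and 9241 FPKM in the KO-labelled libraries but listed at 0 in all 3 wild-type libraries. The fatty acid carrier Fabp4 was at 13389, 17211 and 15311 FPKM in the KO-labelled libraries, and at 23063.8 and 21229.7 FPKM in wild-type libraries 1 and 2 but listed at 0 in wild-type library 3, so no fold change is read from either gene.

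Genes with at least 1 FPKM in at least 3 of the 6 libraries were tested, 13618 in all, and an adjusted p under 0.05 counts as a call. In the KO-labelled libraries, 489 genes were higher (3.59%) and 484 lower (3.55%), together 973 or 7.14% of those tested. Of these, 250 were at least 2-fold higher and 216 at least 2-fold lower, and 850 of the 973 code for proteins. The library values of all 973 did not overlap between the groups, which was so for 34.7% of all genes tested. The median log2 fold change of all genes was -0.02. The leading principal component held 51.3% of the variance and set the groups apart, with wild-type library 2 at -15.7, nearest to the KO-labelled libraries at 21.7 to 45.7, and the other wild-type libraries at -41.3 and -42.4.

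The number of genes called rested on the libraries entered. It was 158 without KO-labelled library 1, 138 without KO-labelled library 2, 561 without KO-labelled library 3, 29 without wild-type library 1, 63 without wild-type library 3 and 1406 without wild-type library 2. Since the groups do not overlap in any of the 973 genes, leaving out 1 library cannot turn their direction. Of the 84 genes named here as called, 29, 27, 51, 15, 65 and 18 stayed called without KO-labelled libraries 1, 2 and 3 and wild-type libraries 1, 2 and 3, in that order. With Xist status as a term, the direction of the 973 genes against wild-type library 2 is fixed by the lack of overlap. That fit uses the same KO-labelled libraries that gave the calls, so it is no separate support for them. The median difference on the called side was 0.83 on the log2 scale against wild-type library 2, 1.06 against library 1 and 1.03 against library 3. Among all genes tested, 52.0% had a negative log2 fold change. Counts of list members below stand beside this share and the 3.59% called higher and 3.55% called lower, and like the total they move with the libraries.

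**Figure D1:**
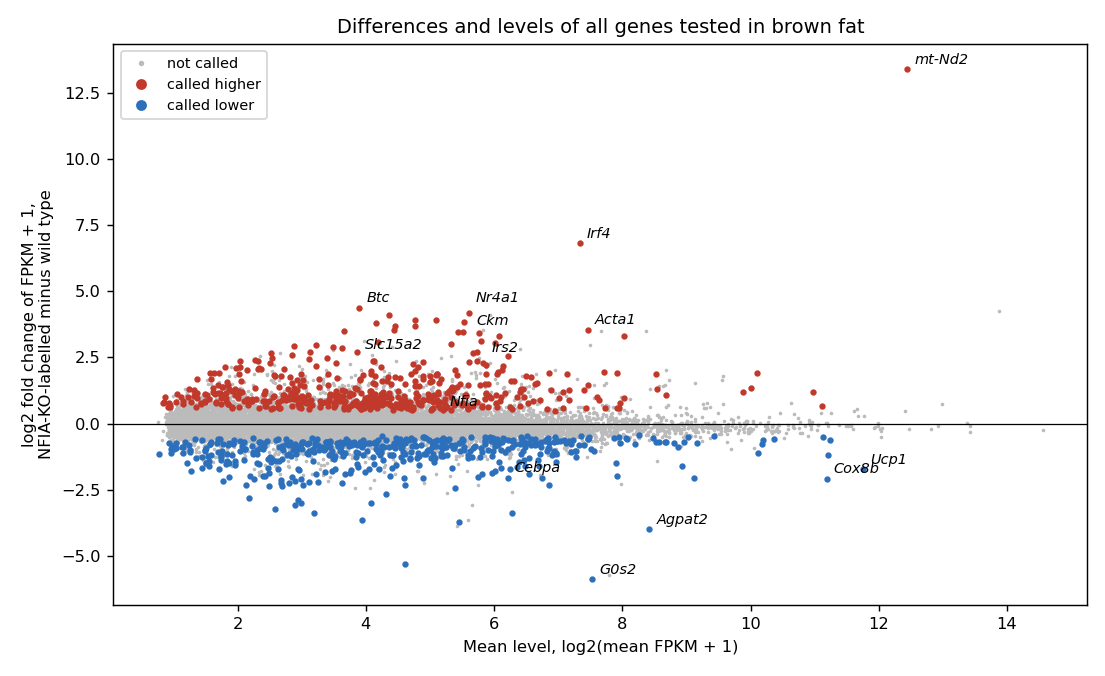
Each point is a gene of the 13618 tested; the x axis is the log2 of the mean FPKM + 1 over the 6 libraries and the y axis the log2 fold change of FPKM + 1, KO-labelled minus wild type. Red points are the 489 genes called higher and blue points the 484 called lower in KO-labelled libraries; Irf4 stands at 6.82, G0s2 at -5.90, and mt-Nd2 at the top is listed at 0 in all 3 wild-type libraries.

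Among genes of thermogenesis, 7 were lower in the KO-labelled libraries, Ucp1 among them. Ucp1, the uncoupling protein that turns fuel oxidation into heat, was at 1594, 1674 and 1445 FPKM in KO-labelled libraries 1, 2 and 3, against 7239.6, 4753 and 4073 FPKM in wild-type libraries 1, 2 and 3. Cox8b, a subunit of cytochrome c oxidase found in brown fat and in muscle, was at 846, 931 and 869 FPKM in the KO-labelled libraries, against 4128, 3502 and 3697 FPKM in the wild-type libraries. For both genes the KO-labelled values lay close together and well below every wild-type value. The log2 fold change was -1.73 ± 0.21 for Ucp1 (adjusted p = 0.018) and -2.09 ± 0.11 for Cox8b (adjusted p = 0.0012), and against wild-type library 2 alone -1.60 ± 0.33 and -1.99 ± 0.17. Both stayed called whichever library was left out.

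Elovl3, an elongase of long fatty acids that cold induces in brown fat, was at 11.3, 2.77 and 1.68 FPKM in the KO-labelled libraries, against 39.2, 18.2 and 39.9 FPKM in the wild-type libraries (-2.66 ± 0.58, adjusted p = 0.044). Otop1, a proton channel, was at 26.1, 22.1 and 11.6 FPKM in the KO-labelled libraries, against 114, 46.3 and 95.3 FPKM in the wild-type libraries (-2.02 ± 0.40, adjusted p = 0.039). In both genes wild-type library 2 was the lowest of its group, yet above all KO-labelled libraries. S100b, a calcium-binding protein that brown adipocytes share with glia, was at 2.86, 4.58 and 7.04 FPKM in the KO-labelled libraries and 23.3, 24.8 and 12.4 FPKM in the wild-type libraries (-1.87 ± 0.34, adjusted p = 0.033). Gyk, a glycerol kinase, fell by 1.61 on the log2 scale (SE 0.37, adjusted p = 0.047), and the mitochondrial acylcarnitine carrier Slc25a20 by 0.87 (SE 0.20, adjusted p = 0.046). The beta-3 adrenergic receptor Adrb3, too low to be tested, was at 0.11, 0.06 and 0.11 FPKM in the KO-labelled libraries and 3.07, 0.85 and 2.09 FPKM in the wild-type libraries.

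Other genes of the same list were not called. Cidea, which sits on lipid droplets and is abundant in brown adipocytes, averaged 2791 ± 529 FPKM in the KO-labelled libraries and 2120.5 ± 139.7 FPKM in the wild-type libraries (SD, n = 3 each), and its log2 fold change of 0.38 ± 0.16 was not called (adjusted p = 0.18). Ppargc1a, a coactivator that cold and cAMP induce, was at 44.7, 34.3 and 35.7 FPKM in the KO-labelled libraries, against 18.4, 27.8 and 10.8 FPKM in the wild-type libraries. Its values did not overlap, with the KO-labelled side higher, and its log2 fold change of 1.06 ± 0.31 missed the call (adjusted p = 0.08). Dio2, the deiodinase that makes active thyroid hormone, spread from 13.0 to 37.1 FPKM in the KO-labelled libraries and from 4.60 to 36.7 FPKM in the wild-type libraries, with no call (adjusted p = 0.82). Cox7a1, another oxidase subunit of brown fat and muscle, did not overlap between the groups, with the KO-labelled side lower. Its log2 fold change of -0.45 ± 0.15 missed the call (adjusted p = 0.11).

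Pdk4, a kinase that shuts glucose carbon out of the citric acid cycle, was higher at 1280.5, 1664 and 1020.2 FPKM in the KO-labelled libraries, against 573, 700.2 and 449 FPKM in the wild-type libraries (1.20 ± 0.23, adjusted p = 0.036). Sln and Ckmt2 were called higher too; Sln encodes sarcolipin, a regulator of the muscle calcium pump, and Ckmt2 a mitochondrial creatine kinase of muscle, and both are described with the muscle genes. In all, 3 of the 35 tested members of the thermogenic list were called higher and 7 lower, and the median log2 fold change was -0.44, against -0.02 over all genes. With 1 library left out, 0 to 2 were called higher and 2 to 9 lower, with 2 lower without KO-labelled library 2, wild-type library 1 or wild-type library 3, 3 without KO-labelled library 1 or 3, and 9 without wild-type library 2. Against wild-type library 2 alone the median of the list was -0.18, and that of all genes 0.0. With the muscle level of the library as a term, 4 of the 10 calls had an unadjusted p under 0.05. The median of the list was then -0.40. In bulk tissue, fewer brown adipocytes and less RNA per brown adipocyte cannot be told apart.

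**Figure D2:**
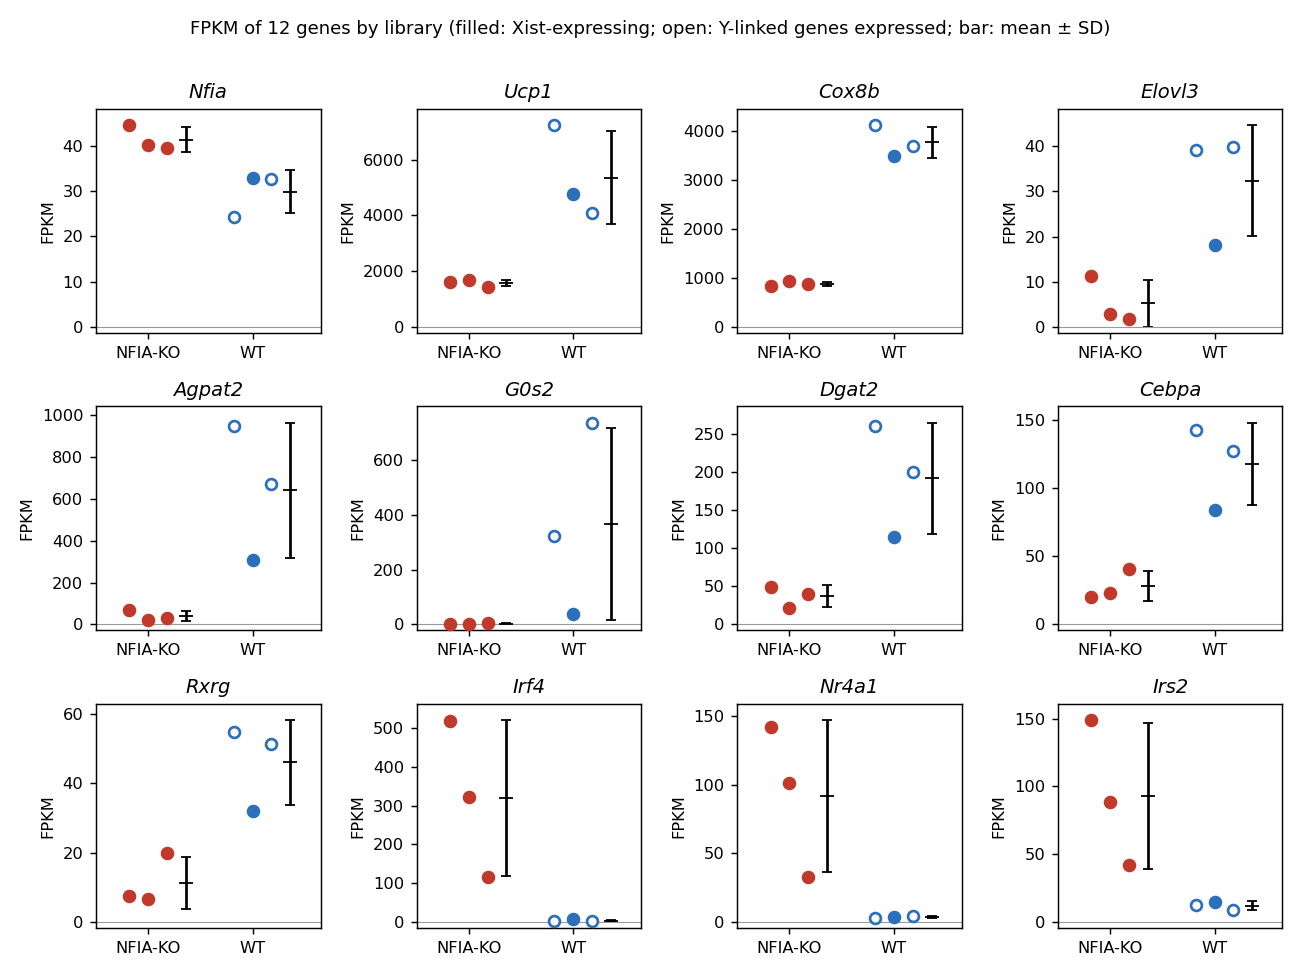
FPKM (linear y axes, grey line at 0) of 12 genes in the 3 KO-labelled libraries (red, left) and the 3 wild-type libraries (blue, right), in the order of their replicate numbers; filled points have Xist, open points have Y-linked RNA, and the bars give the mean ± SD of each group. Nfia is higher in all KO-labelled libraries; Ucp1, Cox8b, Elovl3, Agpat2, G0s2, Dgat2, Cebpa and Rxrg are lower in all 3, and Irf4, Nr4a1 and Irs2 higher in all 3, with wild-type library 2 between the KO-labelled and the other wild-type values in several panels.

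The transcription factors of brown adipocytes moved in both directions. Cebpa, a C/EBP factor that keeps mature adipocyte genes on, was at 20.4, 23.3 and 40.8 FPKM in the KO-labelled libraries, against 142, 84.1 and 127 FPKM in the wild-type libraries (-2.06 ± 0.30, adjusted p = 0.022). Rxrg, a retinoid X receptor of the kind that pairs with PPARG, was at 7.33, 6.52 and 19.8 FPKM in the KO-labelled libraries, against 54.8, 32.1 and 51.4 FPKM in the wild-type libraries (-2.07 ± 0.41, adjusted p = 0.038). In both, KO-labelled library 3 was the highest of its group and wild-type library 2 the lowest of its own, without overlap. Against wild-type library 2 alone the differences were -1.61 ± 0.37 for Cebpa and -1.60 ± 0.56 for Rxrg.

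Irf4, an interferon regulatory factor that in adipocytes is induced by fasting and cold and acts with PPARGC1A, showed the largest rise of the list. Its values were 519.8, 322 and 116 FPKM in KO-labelled libraries 1, 2 and 3, against 0.55, 5.55 and 0.34 FPKM in wild-type libraries 1, 2 and 3 (6.82 ± 0.74, adjusted p = 0.014). The KO-labelled libraries differed widely among themselves, and wild-type library 2 had the highest wild-type value. Nr4a1, an orphan nuclear receptor induced within minutes by cAMP, was at 142, 101.01 and 32.5 FPKM in the KO-labelled libraries, against 2.55, 3.22 and 4.24 FPKM in the wild-type libraries (4.2 ± 0.50, adjusted p = 0.016). It took the same order among the KO-labelled libraries as Irf4. Zfp516, a zinc finger factor that activates Ucp1 in cold, was at 14.2, 10.1 and 7.56 FPKM in the KO-labelled libraries, against 3.58, 3.10 and 2.74 FPKM in the wild-type libraries (1.45 ± 0.22, adjusted p = 0.026).

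Cebpd was called higher by a smaller margin (0.82 ± 0.17, adjusted p = 0.042). The factors best known for brown fat identity were not called. Pparg averaged 142 ± 8.20 FPKM in the KO-labelled libraries and 136 ± 64.4 FPKM in the wild-type libraries (SD, n = 3 each; adjusted p = 0.75). Prdm16 had a log2 fold change of -0.64 ± 0.30 (adjusted p = 0.21), Ebf2 of -0.34 ± 0.28 (adjusted p = 0.45) and Cebpb of -0.14 ± 0.31 (adjusted p = 0.79). Of the 30 tested regulators, 4 were called higher and 2 lower, with a median of 0.14. The median was 0.31 against wild-type library 2 alone. Without wild-type library 1 or 3, 0 of the 30 were called.

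Promoters of 3 of these genes are shown because Ucp1 and Cox8b were called lower whichever library was left out, while Irf4 rose most of the regulators. The windows are the 250 bases before the RefSeq start of each gene on GRCm38.p6, 5′ to 3′ on the strand of the gene, and capitals mark the half-site of nuclear factor I proteins, TTGGC or its complement GCCAA. Ucp1 lies at chr8:83290098-83290347 on the plus strand, Cox8b at chr7:140900447-140900696 on the minus strand and Irf4 at chr13:30748983-30749232 on the plus strand.
Ucp1: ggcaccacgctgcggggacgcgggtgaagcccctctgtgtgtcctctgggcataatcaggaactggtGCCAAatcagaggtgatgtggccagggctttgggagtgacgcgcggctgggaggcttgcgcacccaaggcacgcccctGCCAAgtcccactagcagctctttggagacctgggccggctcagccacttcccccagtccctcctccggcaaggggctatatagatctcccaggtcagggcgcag
Cox8b: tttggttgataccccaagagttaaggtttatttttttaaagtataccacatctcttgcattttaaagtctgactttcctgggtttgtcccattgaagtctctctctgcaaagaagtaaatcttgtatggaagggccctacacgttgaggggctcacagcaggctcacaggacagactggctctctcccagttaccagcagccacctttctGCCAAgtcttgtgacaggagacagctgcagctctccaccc
Irf4: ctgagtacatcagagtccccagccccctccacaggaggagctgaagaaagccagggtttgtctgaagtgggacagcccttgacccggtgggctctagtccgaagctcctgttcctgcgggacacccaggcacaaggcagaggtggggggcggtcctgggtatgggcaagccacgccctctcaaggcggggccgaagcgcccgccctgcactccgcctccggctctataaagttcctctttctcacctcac
The Ucp1 window held 2 half-sites, the Cox8b window 1 and the Irf4 window 0. Of all 32851 RefSeq windows of this length, 41.5% held a half-site on either strand, and 45.1% of the windows of tested genes did. The share was 44.9% for genes called higher, with 357 of 488 symbols matched, and 49.0% for genes called lower, with 336 of 484 matched. The full palindrome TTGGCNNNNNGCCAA was in 12 of all windows and in 0 of those of called genes. A match describes letters in the window and not a bound site.

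Several genes that build and hold fat droplets were lower. G0s2, an inhibitor of the triglyceride lipase ATGL, was at 2.11, 1.49 and 4.71 FPKM in KO-labelled libraries 1, 2 and 3, against 322, 38.2 and 737 FPKM in wild-type libraries 1, 2 and 3 (-5.90 ± 0.99, adjusted p = 0.029). The wild-type libraries differed widely, with library 2 lowest, and the difference to that library alone was -3.47 ± 0.59. Agpat2, the enzyme that makes phosphatidic acid and whose loss in humans causes lipodystrophy, was at 66.8, 21.2 and 31.1 FPKM in the KO-labelled libraries, against 950.0, 306 and 670.3 FPKM in the wild-type libraries (-4.00 ± 0.52, adjusted p = 0.018). Against wild-type library 2 the difference was -3.08 ± 0.58.

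Both enzymes of the last step of triglyceride synthesis were lower. Dgat1 was at 274, 268 and 176 FPKM in the KO-labelled libraries, against 887, 699 and 616 FPKM in the wild-type libraries (-1.62 ± 0.21, adjusted p = 0.018). Dgat2 was at 49.4, 21.8 and 40.3 FPKM in the KO-labelled libraries, against 261, 115 and 199.9 FPKM in the wild-type libraries (-2.34 ± 0.38, adjusted p = 0.027). Neither overlapped between the groups. Gpd1, which makes glycerol phosphate from glycolysis, was at 1102, 1259 and 2024 FPKM in the KO-labelled libraries and 3923, 2821 and 3048 FPKM in the wild-type libraries (-1.19 ± 0.25, adjusted p = 0.041). The fatty acid carrier Fabp5 (-1.19 ± 0.12) and Abhd5, the activator of ATGL (-0.68 ± 0.14), were called lower as well, with adjusted p of 0.011 and 0.042.

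Lpin1, the phosphatidate phosphatase between Agpat2 and the Dgat enzymes, went the other way at 307, 174 and 169 FPKM in the KO-labelled libraries, against 45.3, 110.0 and 35.97 FPKM in the wild-type libraries (1.86 ± 0.43, adjusted p = 0.049). Its wild-type library 2 was again nearest to the KO-labelled values, with a difference of 0.91 ± 0.36. The acute phase protein Orm1 was also called higher (1.60 ± 0.30, adjusted p = 0.035). Plin1, the coat protein of fat droplets, was at 59.2, 35.98 and 143 FPKM in the KO-labelled libraries and 487, 109.9 and 667 FPKM in the wild-type libraries, which overlapped, and was not called (adjusted p = 0.1). Adipoq, the hormone adiponectin, averaged 735 ± 80.1 FPKM in the KO-labelled libraries and 865 ± 26.5 FPKM in the wild-type libraries (SD, n = 3 each; adjusted p = 0.22). Of the 37 tested general adipocyte genes, 2 were called higher and 8 lower, with a median of -0.38. The median was -0.29 against wild-type library 2 alone. The 8 lower calls became 4, 3 and 7 without KO-labelled libraries 1, 2 and 3, and 0, 15 and 1 without wild-type libraries 1, 2 and 3. Of the 11 tested genes selective for white fat, 1 was called, the adhesion receptor gene Gpr64, higher at 4.84, 1.87 and 2.20 FPKM in the KO-labelled libraries, against 0.17, 0.13 and 0.20 FPKM in the wild-type libraries.

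Some mitochondrial genes were called lower, by small amounts. All 22 tested enzymes of the citric acid cycle had a negative log2 fold change, with a median of -0.28, and 5 were called lower (22.7%, against 3.55% of all genes). Sucla2, the ATP-forming subunit of succinyl-CoA ligase, changed most, at 708, 724 and 662 FPKM in the KO-labelled libraries, against 1646, 1515 and 1368 FPKM in the wild-type libraries (-1.11 ± 0.11, adjusted p = 0.011). Cs, citrate synthase, was at 971, 1116 and 1064 FPKM in the KO-labelled libraries and 1746, 1569 and 1482 FPKM in the wild-type libraries (-0.61 ± 0.12, adjusted p = 0.036). The groups did not overlap in either gene. Ogdh, Dld and Sdhd, which encode parts of the oxoglutarate and succinate dehydrogenases, were called at -0.72, -0.76 and -0.48.

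Of 79 nuclear genes of the respiratory chain and ATP synthase, 65 had a negative log2 fold change, with a median of -0.20, against 52.0% negative and a median of -0.02 over all genes. Of them 0 were called higher and 6 lower (7.59%, against 3.55% of all genes). Beside Cox8b and Sdhd these were the complex I genes Ndufb3, Ndufb7 and Ndufs1, at -0.53, -0.72 and -0.50, and the ATP synthase subunit Atp5a1 at -0.53. Of 40 mitochondrial ribosomal proteins, 37 had a negative log2 fold change and 4 were called lower (10.0%), led by Mrpl12 at 97.9, 89.5 and 90.9 FPKM in the KO-labelled libraries, against 201, 158 and 242 FPKM in the wild-type libraries (-1.08 ± 0.17, adjusted p = 0.025). With the muscle level of the library as a term, 1 of the 6 respiratory and 2 of the 5 citric acid cycle calls kept an unadjusted p under 0.05. The medians were then 0.06 for the respiratory genes, -0.05 for the citric acid cycle and -0.21 for the mitochondrial ribosome. Over all genes the median was -0.01 with that term. The lower medians of the respiratory and citric acid cycle lists were thus not seen there. Summed contractile levels did not overlap between the groups, at 604 to 3231.5 FPKM in the KO-labelled and 194 to 314 FPKM in the wild-type libraries. The fit therefore separates muscle level and group label poorly, and their parts in these medians cannot be told apart. Leaving out 1 library left 1 or 2 respiratory, 0 to 3 citric acid cycle and 0 to 7 ribosomal genes called lower. Only wild-type library 2, when left out, raised one of these counts, the ribosomal one, and without wild-type library 1 the counts were 1, 0 and 0.

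Fatty acid oxidation was less uniform. Acadm, the medium-chain acyl-CoA dehydrogenase, was at 907, 952 and 914 FPKM in the KO-labelled libraries, against 1554, 1316 and 1406 FPKM in the wild-type libraries (-0.62 ± 0.11, adjusted p = 0.029). Acsl5, which activates fatty acids, was called lower (-0.87 ± 0.20, adjusted p = 0.047), and Acad11, which acts on longer and branched substrates, was called higher (1.20 ± 0.21, adjusted p = 0.029). Of 34 members, 1 was called higher (2.94%, against 3.59% of all genes) and 3 lower (8.82%, against 3.55%), and 27 had a negative log2 fold change. The lower calls were 5 without wild-type library 2 and 0 without any other library. The regulators of these programs Ppargc1b, Esrra and Ppara had log2 fold changes of -0.80 ± 0.19, -0.79 ± 0.19 and -0.98 ± 0.36 without a call, and of 14 factors of mitochondrial biogenesis 1 was called, Gabpa, the DNA-binding subunit of the GABP factor, lower at -0.68 ± 0.15 (adjusted p = 0.046).

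Several genes that hormones or fasting induce were called higher. Of the 16 genes that glucocorticoids or fasting induce, 5 were called higher and 0 lower, with a median of 1.09. The 5 calls became 1 without KO-labelled library 1 and 0 without KO-labelled library 2 or wild-type library 1 or 3. Irs2, an adaptor of the insulin receptor, was at 149, 88.2 and 41.6 FPKM in the KO-labelled libraries, against 12.6, 15.0 and 8.53 FPKM in the wild-type libraries (2.70 ± 0.44, adjusted p = 0.027). Zbtb16, a zinc finger factor, was at 71.0, 54.2 and 68.5 FPKM in the KO-labelled libraries, against 9.33, 31.1 and 17.6 FPKM in the wild-type libraries (1.83 ± 0.38, adjusted p = 0.042). Neither overlapped between the groups, and wild-type library 2 was the highest of its group in both. Ddit4, an inhibitor of mTORC1, and Foxo3, a forkhead factor active when insulin is low, were called at 1.91 ± 0.41 and 1.85 ± 0.37, beside Pdk4.

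Of 18 genes of lipolysis and beta-adrenergic signalling, 1 was called higher and 4 lower, with a median of -0.35. The lower calls were 8 without wild-type library 2, 2 without KO-labelled library 3 and 1 without any other library. The 4 lower ones were Abhd5, G0s2 and Ucp1, described above, and Adcy6, an adenylyl cyclase (-0.76 ± 0.17, adjusted p = 0.047).

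Immediate early and stress genes gave 5 calls higher and 1 lower of 22 tested, with a median of 0.48, which is 22.7% and 4.55% of the list beside 3.59% and 3.55% of all genes. The calls higher were 1 without KO-labelled library 1 or 2 or wild-type library 3, and 0 without wild-type library 1. Nr4a3, a relative of Nr4a1, was at 85.6, 45.9 and 18.97 FPKM in the KO-labelled libraries, against 0.82, 5.48 and 1.0 FPKM in the wild-type libraries (3.92 ± 0.65, adjusted p = 0.028). Zfp36, which speeds the decay of cytokine mRNAs, was at 137, 74.0 and 34.4 FPKM in the KO-labelled libraries, against 13.0, 13.0 and 13.9 FPKM in the wild-type libraries (2.33 ± 0.44, adjusted p = 0.036). Both were highest in KO-labelled library 1 and lowest in library 3 of their group. Jun (1.55 ± 0.22) and Hmox1, heme oxygenase (0.63 ± 0.14), were called higher, while Fos, the usual partner of Jun, was not called (0.25 ± 0.20, adjusted p = 0.44). Asns, asparagine synthetase and a target of the amino acid response, went down to 36.1, 39.0 and 39.7 FPKM in the KO-labelled libraries, against 168, 143 and 128 FPKM in the wild-type libraries (-1.90 ± 0.13, adjusted p = 0.0044), and stayed called whichever library was left out.

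The order of the KO-labelled libraries seen in Irf4, Nr4a1, Nr4a3, Irs2 and Zfp36, library 1 highest and library 3 lowest, was that of 149 of the 489 genes called higher (30.5%), against 22.5% of all genes tested.

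Skeletal muscle genes were higher in the KO-labelled libraries and differed widely among them. Acta1, the skeletal muscle actin, was at 604, 89.8 and 287 FPKM in KO-labelled libraries 1, 2 and 3, against 15.7, 12.8 and 41.9 FPKM in wild-type libraries 1, 2 and 3 (3.55 ± 0.72, adjusted p = 0.041). Ckm, muscle creatine kinase, was at 148, 26.3 and 80.6 FPKM in the KO-labelled libraries, against 4.36, 0.76 and 10.8 FPKM in the wild-type libraries (3.85 ± 0.81, adjusted p = 0.042). Mylpf, a myosin light chain of fast fibres, was at 867, 131 and 444 FPKM in the KO-labelled libraries, against 25.02, 35.5 and 55.6 FPKM in the wild-type libraries (3.29 ± 0.65, adjusted p = 0.039). KO-labelled library 1 was highest and library 2 lowest of its group in all 3 genes, and no wild-type library reached library 2.

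Of the 31 tested contractile genes, 21 were called higher and 0 lower, with a median of 2.30. This count stayed at 21 without KO-labelled library 2, but was 1 without KO-labelled library 1, 2 without KO-labelled library 3, 8 without wild-type library 2 and 0 without wild-type library 1 or 3. The summed FPKM of all 37 members was 3231.5, 604 and 1827 in the KO-labelled libraries, against 194, 204 and 314 in the wild-type libraries. Its log2 difference was 2.72, with a two-sided exact permutation p of 0.1, the smallest that 3 against 3 libraries allow. Sln at 67.8, 12.6 and 37.3 FPKM and Ckmt2 at 7.18, 1.45 and 5.86 FPKM in the KO-labelled libraries, against 0.86, 0.19 and 6.53 FPKM and 0.10, 0.02 and 0.41 FPKM in the wild-type libraries, took the same order. So did the muscle forms of 2 glycolytic enzymes, Pgam2 (1.86 ± 0.37) and Eno3 (1.79 ± 0.30), whereas the widely expressed Pgam1 (-1.11 ± 0.14) and Pgk1 (-0.64 ± 0.13) of the same glycolysis list were called lower.

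The regulators of muscle formation did not follow as a group. Myod1 was below 0.5 FPKM in all 6 libraries and was not tested, and Myog was at 3.49, 0.55 and 1.74 FPKM in the KO-labelled libraries and 0.05, 2.90 and 0.19 FPKM in the wild-type libraries, which overlapped (adjusted p = 0.49). Of 6 tested, 2 were called higher, among them Six4, a homeobox factor of muscle precursors and other tissues (1.13 ± 0.24). When the mean contractile level of a library entered the fit as a term, 2 genes were called. Of the 973 genes, 964 kept their direction and 519 had an unadjusted p under 0.05. Among them, the difference was -1.47 ± 0.45 for Ucp1, -1.94 ± 0.24 for Cox8b, -5.64 ± 0.86 for Agpat2 and 6.98 ± 1.62 for Irf4, while Sln had 0.60 ± 1.06 and Ckmt2 0.15 ± 0.33. The contractile level itself differed between the groups without overlap, so this fit separates it poorly from the group label. The SE rose with the term, for Ucp1 from 0.21 to 0.45. The part of muscle RNA in the other differences was not tested further.

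**Figure D3:**
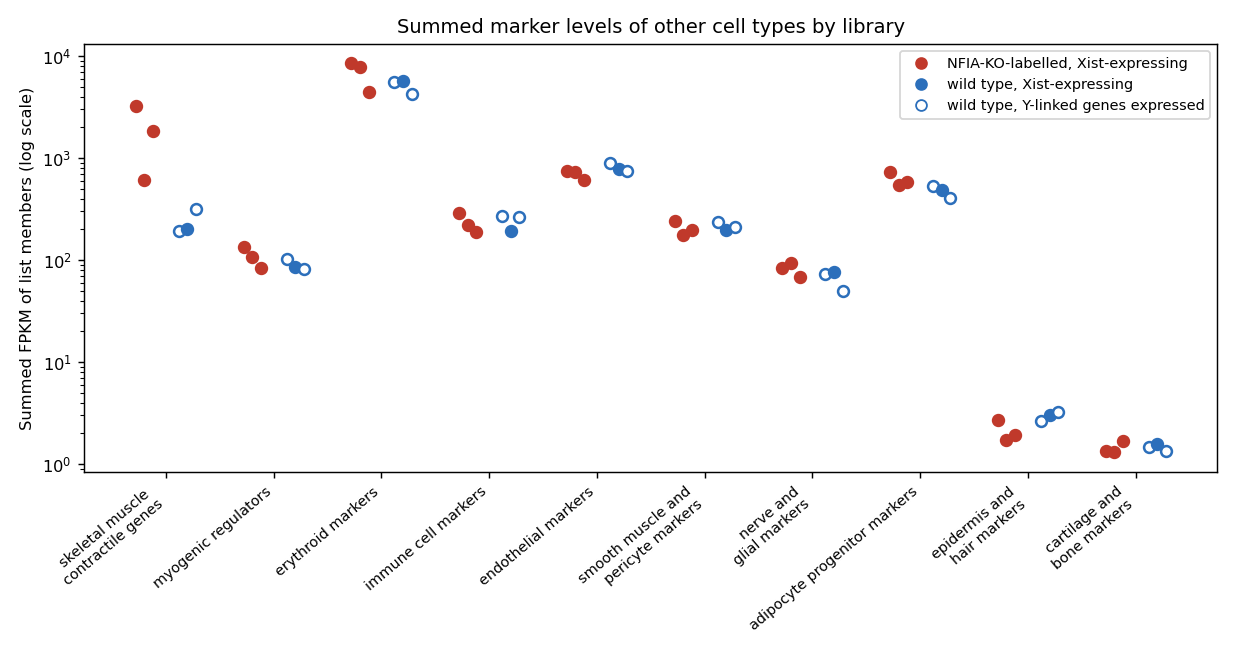
Summed FPKM (log y axis) of the members of 10 marker lists in each library, with the KO-labelled libraries (red) left of the wild-type libraries (blue) in the order of their replicate numbers; filled points have Xist and open points Y-linked RNA. Contractile genes sum to 604 to 3231.5 in the KO-labelled and 194 to 314 in the wild-type libraries, while the erythroid, immune and smooth muscle sums overlap between the groups.

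Markers of other cells differed less. Over all genes tested, 28.9% had an unadjusted p under 0.05 in limma, the share beside which the counts at that level stand. Endothelial markers summed to 740.2, 729.8 and 607 FPKM in the KO-labelled libraries and 897.5, 773 and 741 FPKM in the wild-type libraries, a log2 difference of -0.22 (exact permutation p = 0.1, two-sided), and limma called 0 of 12 members, with 4 at an unadjusted p under 0.05. Markers of adipocyte progenitors summed to 730.0, 540.2 and 584.5 FPKM in the KO-labelled libraries and 532, 483 and 407 FPKM in the wild-type libraries, a log2 difference of 0.38 (exact permutation p = 0.1, two-sided), with 0 of 10 called by limma and 4 at an unadjusted p under 0.05. Those 2 lists thus did not overlap in their sums, although no member of either was called by limma. The margins were narrow. The nearest KO-labelled and wild-type sums were 740.2 and 740.7 FPKM for endothelial and 540.2 and 532.1 FPKM for progenitor markers. Dlk1 made up most of the progenitor sum, with a mean of 409.5 of 618.2 FPKM in the KO-labelled libraries. The progenitor marker Pi16 came nearest to a call at 1.0 ± 0.25 (adjusted p = 0.058 in limma).

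Erythroid markers, led by the globin Hba-a1 at 3155, 2804 and 1644 FPKM in the KO-labelled libraries and 1852, 2091 and 1609.6 FPKM in the wild-type libraries, had an exact permutation p of 0.3 for their sum, and immune markers 0.9. Of 18 immune markers 8 were below 1 FPKM in all libraries. Limma called 0 of the 10 tested, with 3 at an unadjusted p under 0.05, beside 28.9% of all genes. Those 3 were the macrophage and monocyte markers Emr1, Mrc1 and Cd14, with log2 fold changes of 0.61 ± 0.20, 0.87 ± 0.33 and 0.47 ± 0.17 (adjusted p = 0.11, 0.14 and 0.13) and no overlap between the groups, while Csf1r and Cd68 had 0.36 ± 0.26 and 0.37 ± 0.25. Skin and cartilage were near absent: the keratinocyte keratin Krt14 was at 0 to 0.02 FPKM, 9 of 11 epidermal and all 10 cartilage and bone markers were below 1 FPKM in every library. Nerve and glial markers gave 1 call in each direction, Pmp22 higher (1.09 ± 0.24) and S100b lower.

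The remaining lists gave few calls. Lox, Vcan and Fbln1, which crosslink or fill the extracellular matrix, were higher at 1.15 ± 0.25, 1.41 ± 0.26 and 0.97 ± 0.20, and Ctgf, a matricellular growth factor, was lower at -1.16 ± 0.22, of 35 matrix genes tested. Of 33 genes of the cell cycle, 1 was called, Ccnd1, the cyclin of the early cycle, at 4.23, 3.30 and 4.35 FPKM in the KO-labelled libraries, against 21.2, 14.0 and 13.8 FPKM in the wild-type libraries (-1.78 ± 0.20, adjusted p = 0.014). It stayed called whichever library was left out. Id2, an inhibitor of helix-loop-helix factors, was the 1 gene called of 15 in the TGF-beta and BMP list, lower at -1.45 ± 0.19 (adjusted p = 0.018). The clock repressor Nr1d2 (1.22 ± 0.22) was 1 of 17 clock genes called, Rbp7, a retinol-binding protein (-1.71 ± 0.37), 1 of 9 retinoid genes, and Hoxa7 (-1.18 ± 0.21) 1 of 12 HOX genes. Limma called 0 of 17 interferon response genes, 0 of 13 imprinted growth genes, 0 of 17 adipokines and 0 of 10 angiogenic factors. Of these, 0, 3, 5 and 2 had an unadjusted p under 0.05, beside 28.9% of all genes.

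**Figure D4:**
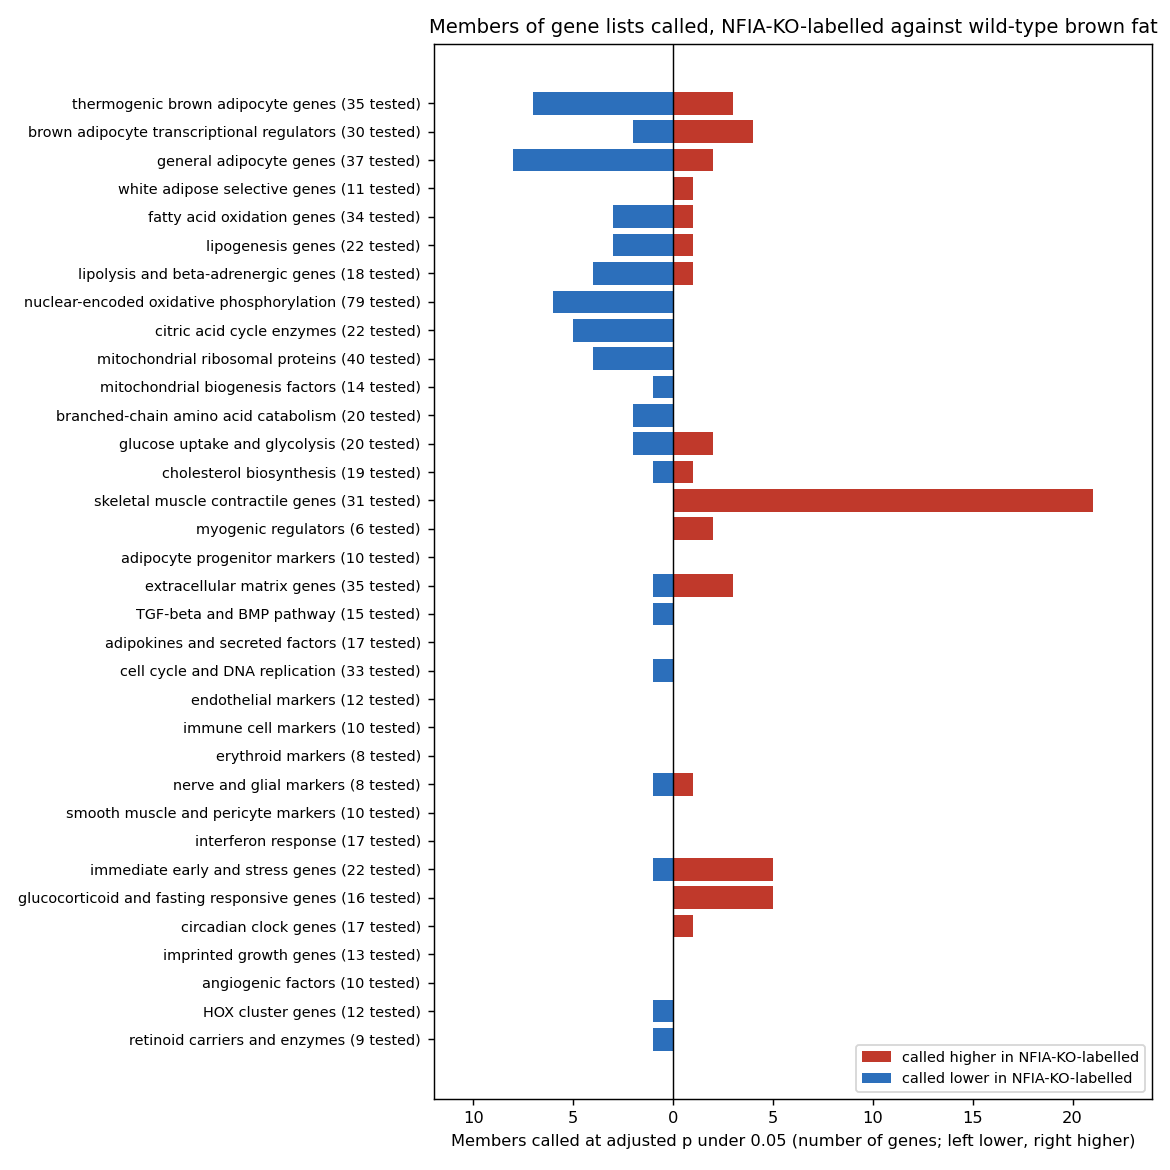
Number of members called higher (red, to the right of 0) and lower (blue, to the left of 0) in KO-labelled libraries at an adjusted p under 0.05, for each gene list with at least 5 tested members, whose number is in parentheses. Contractile genes stand out with 21 called higher; thermogenic and adipocyte genes have 7 and 8 called lower, and citric acid cycle, respiratory chain and mitochondrial ribosome genes are called in the lower direction only.

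Outside these lists, the largest rise with a mean of at least 5 FPKM and no listing at 0 was in Btc, betacellulin, a ligand of the EGF receptor, at 38.0, 28.3 and 15.7 FPKM in the KO-labelled libraries, against 0.07, 0.75 and 0.12 FPKM in the wild-type libraries (4.39 ± 0.34, adjusted p = 0.0049). Piwil4, of the family that carries piRNAs in the germline, was at 65.9, 40.3 and 8.94 FPKM in the KO-labelled libraries, against 0.97, 1.05 and 0.28 FPKM in the wild-type libraries (4.12 ± 0.65, adjusted p = 0.027). Osr2, a zinc finger factor of limb and palate development, was at 71.0, 24.1 and 3.96 FPKM in the KO-labelled libraries, against 0.36, 0.96 and 0.22 FPKM in the wild-type libraries (3.81 ± 0.87, adjusted p = 0.047). All 3 were at most at 1.05 FPKM in every wild-type library and highest in KO-labelled library 1. The deposited Btc entry covers a wide locus, mm9 chr5:91701001-92631820, and whether reads of neighbouring genes enter it was not tested.

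Among the falls, Ppp1r1a, a phosphatase inhibitor that protein kinase A switches on, was at 8.19, 4.22 and 2.91 FPKM in the KO-labelled libraries, against 74.2, 43.8 and 125 FPKM in the wild-type libraries (-3.71 ± 0.44, adjusted p = 0.015). Clstn3, a calsyntenin, was at 10.1, 8.88 and 13.6 FPKM in the KO-labelled libraries, against 255, 70.4 and 103 FPKM in the wild-type libraries (-3.40 ± 0.44, adjusted p = 0.018). The retinol dehydrogenase family member Dhrs9 was at 0.19, 0.29 and 1.05 FPKM in the KO-labelled libraries, against 25.2, 10.0 and 11.8 FPKM in the wild-type libraries (-3.40 ± 0.36, adjusted p = 0.014). These genes were named for the size of their fall among called genes without overlap, so the gap between the groups follows from that choice. Chdh, choline dehydrogenase of mitochondria, fell alike (-3.08 ± 0.34, adjusted p = 0.014). Its deposited locus is wide too, mm9 chr14:30822209-31340242, with the same limit as for Btc.

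A set of 23 genes stayed called whichever of the 6 libraries was left out, 10 higher and 13 lower. The set counts mt-Nd2, listed at 0 in all 3 wild-type libraries, and a 5S rRNA entry listed at 0 in all 3 KO-labelled libraries. Beside Ucp1, Cox8b, Asns, Ccnd1, Dhrs9 and Btc it held Slc15a2, a peptide transporter, named here after its values were seen. Slc15a2 was at 66.4, 76.8 and 69.1 FPKM in the KO-labelled libraries, against 7.86, 9.53 and 6.43 FPKM in the wild-type libraries (3.02 ± 0.16, adjusted p = 0.0012). Its difference against wild-type library 2 alone was 2.77. Also chosen after seeing the values, Adig, a small protein of fat cells, was at 84.6, 92.4 and 106 FPKM in the KO-labelled libraries, against 367, 315 and 472 FPKM in the wild-type libraries (-2.0 ± 0.17, adjusted p = 0.0063).

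The genes called in tissue were set beside the change on adding NFIA to C2C12 cells, at day 7 of culture without forskolin. The C2C12 comparison shares no library with the tissue comparison, and in it NFIA was added, not removed. There, 7962 of 14351 genes were called (55.5%). Of the 484 genes lower in KO-labelled tissue, 438 were tested in C2C12 cells, and 223 were higher (50.9%) and 49 lower (11.2%) in NFIA cells than in control cells, with a median log2 fold change of 0.39. Of the 489 genes higher in KO-labelled tissue, 426 were tested, and 133 were higher (31.2%) and 152 lower (35.7%), with a median of -0.07. Over all 12390 genes tested in both, 27.6% were higher and 26.2% lower, with a median of 0.01.

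By gene, the log2 fold change in NFIA against control C2C12 cells was 8.21 for Dgat2, 7.01 for Clstn3, 6.16 for Ppp1r1a, 5.74 for Agpat2, 4.41 for Cebpa and 3.91 for G0s2, all called higher there and lower in KO-labelled tissue. Cox8b was higher by 2.31, while Ucp1 was near absent there, averaging 0.0633 FPKM with added NFIA and 0 FPKM without. All 21 contractile genes called higher in KO-labelled tissue were called lower in the NFIA cells, with a median of -3.06, among them Ckm (-3.14). Sln was higher in both (3.27 in C2C12 cells), as were Lpin1 (2.92), Cebpd (2.06) and Acad11 (1.59). Ctgf and Ccnd1, called lower in KO-labelled tissue, were called lower in the NFIA cells too (-3.78 and -0.51). All 5 genes of the glucocorticoid and fasting list called higher in tissue were called higher in the NFIA cells. Irf4 was near absent from C2C12 cells, at 0.05 FPKM with added NFIA and 0.0267 FPKM without, and Irs2 was higher in both (2.05 in C2C12 cells).

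**Figure D5:**
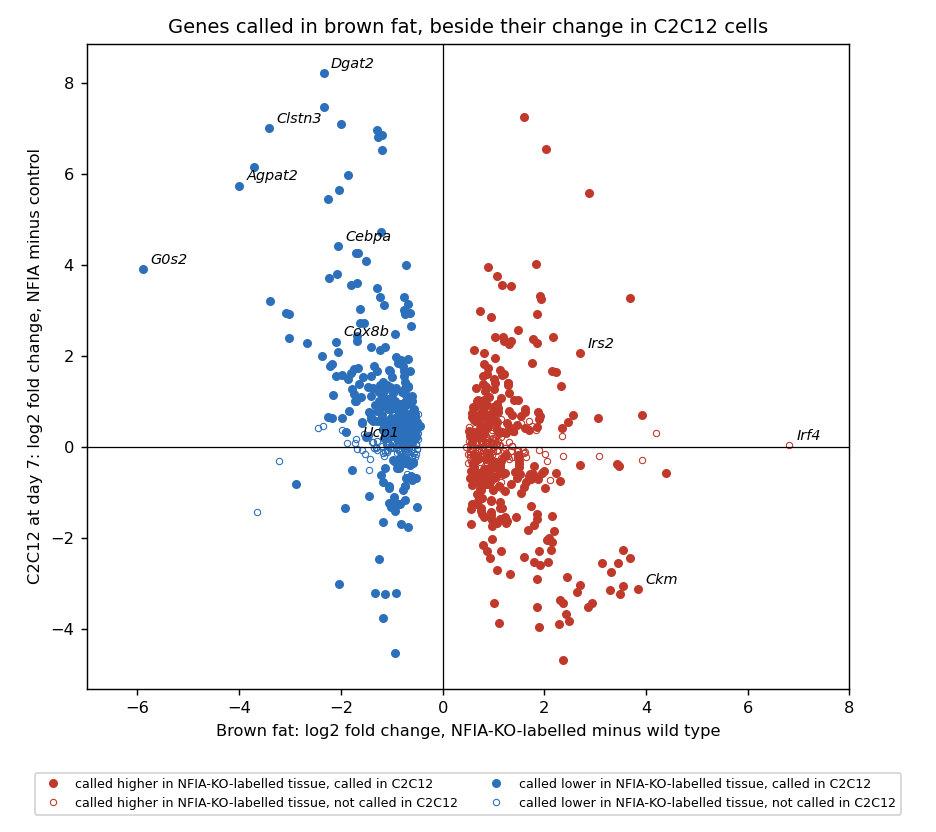
Each point is a gene called in brown fat; the x axis is its log2 fold change there, KO-labelled minus wild type, and the y axis its log2 fold change in C2C12 cells at day 7, NFIA minus control. Filled points are also called in C2C12 cells; the genes lower in KO-labelled tissue (blue) have a C2C12 median of 0.39 and those higher (red) of -0.07.

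Called genes were spread over the genome. The share called ran from 4.57% on chromosome 17 to 10.2% on chromosome 12, and was 7.95% on chromosome 4, which holds Nfia. Within 5 Mb of Nfia 3 of 40 tested genes were called (7.5%), and within 20 Mb 13 of 184 (7.07%), beside 7.14% overall.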

How the data were processed

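Polyadenylated RNA of brown adipose tissue was sequenced as stranded libraries, per the labels' protocols. The authors deposited FPKM per gene, 1 table a library, for which the submitters' processing notes name TopHat, Cufflinks and the build mm9. Program versions, annotation and read totals were not given in the sources used here; depth and counting error are unknown. FPKM is relative to the library's mapped fragments, so a few very abundant RNAs listed or not listed can shift all others; rescaling was tried as an alternative. Of 37305 entries, 264 were merged into another entry of their symbol whose locus they overlap, leaving 37041; in some entries the locus spans several neighbouring genes.

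Groups follow the titles. Genes with at least 1 FPKM in at least 3 of the 6 libraries were compared as log2(FPKM + 1), pseudocount 1, with limma 3.58.1 in R 4.3.3, a variance trend, two-sided moderated tests and Benjamini-Hochberg adjustment over 13618 genes; these log2 fold changes (given ± SE) understate the changes of low genes. The C2C12 comparison is from 1 fit of the 18 C2C12 libraries. The procedure was run on simulated data with independent noise in each library. These lack the differences in sex and muscle level of the real libraries, so the run does not show how stable the calls are here. Summed marker levels were compared by exact permutation tests over libraries.

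The comparison, the gene lists and the tests were chosen with earlier results of these data known. Named genes are 19 regulators and markers fixed by name, up to 6 called members of each list with the largest change (or up to 6 by level or change where none is called), the 12 called genes per direction with the largest change and no overlap, and genes with isolated zeros; the text prints part of these, and some called genes are not reported here. Abundant cell type markers are given beside them. Gyk, Gpd1, Fabp5, Orm1, Plin1, Ppargc1b, Esrra, Ppara, Fos, Snhg7, Slc15a2 and Adig were added after their values were seen. Alternatives were a pseudocount of 0.1, no filter, a filter of 5 FPKM, quantile and median-of-ratios scaling, no trend, a minimum fold of 1.5, a replicate block, each library left out, all 24 libraries in 1 fit, array weights, only protein-coding genes, zeros as missing and the muscle level as a term; Xist status as a term and mitochondrial genes left out were chosen after seeing the data. Promoter windows are from RefSeq, GRCm38.p6.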

Additional observations from a re-analysis of the deposited data

How the results depend on the processing

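The count of 973 genes called, and of 96 list members among them, depended on the libraries and on terms in the fit. The counts were 40 and 4 without a filter on low values (24244 genes tested), 27 and 4 with a minimum fold of 1.5, 3940 and 261 with all 24 libraries in 1 fit, 4896 and 290 with array weights, 2 and 0 with the muscle level as a term, and 2 and 0 with Xist status as a term, where 1105 and 1689 genes had an unadjusted p under 0.05. Leaving out 1 library gave 29 to 1406 genes and 4 to 103 list members. The other alternatives gave 890 to 1153 genes, except the replicate block with 799 genes and 87 members. The labels do not say whether the replicate numbers pair the libraries. Deviations from the group means had correlations of -0.00912, 0.111 and 0.143 between same-numbered libraries. Between differently numbered libraries they ran from -0.169 to 0.069. With 3 libraries a group these values cannot decide whether the numbers mark pairs. None of the called genes named in the text reversed under any alternative run, which for a left-out library and for Xist status follows from groups that do not overlap.

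Genes without a call did reverse. With 1 library left out, Nfib ranged from -0.08 to 0.09, Nfix from -0.03 to 0.34, Cebpb from -0.47 to 0.20, Dio2 from -0.50 to 0.87, Pparg from -0.13 to 0.52 and Fabp4 from -0.54 to 6.71. Nfib came to -0.10 with array weights and -0.07 with Xist status. Nfix came to -0.01 with array weights and -0.10 with the muscle level. Cebpb came to 0.14 with array weights, 0.70 with the muscle level and 0.04 with Xist status. With Xist status, Dio2 came to -0.87, Pparg to -0.55, Nfic to 0.21, Ebf2 to 0.16 and Myog to -0.55; with the muscle level, Myog came to -0.63, Csf1r to -0.44, Cd68 to -0.27, Emr1 to -0.03, Mrc1 to -0.05 and Cd14 to -0.11. Fabp4 came to -0.54 with its zero as missing, and to -0.48 with Xist status. The cause of these reversals was not tested, other than the zero of Fabp4. Unknown depth, 3 libraries a group and the single wild-type library that shares the Xist status of the KO-labelled group limit every result.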

Other observations

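Agpat2 lies in a deposited locus, mm9 chr2:26435534-26492017, that the tables give for 5 genes together, and its neighbours were called lower as well. Fam69b of the same locus was at 0.56, 0.30 and 0.49 FPKM in the KO-labelled libraries, against 26.1, 4.41 and 9.82 FPKM in the wild-type libraries (log2 fold change -3.01 ± 0.52, adjusted p = 0.029 in limma). The adjoining noncoding RNA Snhg7, at chr2:26492697-26495764, was at 7.54, 7.70 and 8.73 FPKM in the KO-labelled libraries, against 22.4, 26.9 and 25.9 FPKM in the wild-type libraries (-1.53 ± 0.13, adjusted p = 0.0063), and the snoRNA Snora17 in the same interval was called lower too (-3.64 ± 0.84, adjusted p = 0.048). Egfl7, an endothelial gene of the Agpat2 locus, was at 156, 158 and 119.6 FPKM in the KO-labelled libraries and 190.0, 166 and 174 FPKM in the wild-type libraries and was not called (-0.30 ± 0.14, adjusted p = 0.21). How reads were shared among genes of this locus was not tested.

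Several further genes stayed called whichever library was left out and are named here after their values were seen. Il15ra, a receptor chain for interleukin 15, was at 8.88, 7.31 and 8.44 FPKM in the KO-labelled libraries, against 41.4, 41.4 and 31.3 FPKM in the wild-type libraries (-2.08 ± 0.15, adjusted p = 0.0047). Acer2, an alkaline ceramidase, was at 139, 149.9 and 127 FPKM in the KO-labelled libraries, against 34.4, 41.5 and 43.3 FPKM in the wild-type libraries (1.78 ± 0.13, adjusted p = 0.0047). Folr1, a folate receptor, was at 9.17, 13.9 and 10.8 FPKM in the KO-labelled libraries, against 0.77, 1.01 and 1.32 FPKM in the wild-type libraries (2.59 ± 0.19, adjusted p = 0.0047). Tight groups that lie apart are what this choice selects, so the values of these 3 genes are no added support.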
